A study of Arabidopsis thaliana with 4 samples.

Results

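The comparison described here is that of potassium-starved Arabidopsis thaliana roots at 96 h against 48 h after transfer to a solution without potassium. It uses 2 of the 4 arrays of the study, 1 for each time. The arrays were chosen by their titles, and 14324 of 22746 probe sets entered the comparison, because their signal reached the 40th percentile of the array on at least 1 of the 2 starved arrays. That percentile was a signal of 29.6 on the starved array at 48 h and of 30.4 at 96 h.

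The plants were of the accession Col-0 (stock N1092), with no mutant or transgene named in the labels. They were grown in hydroponic culture, with roots in liquid nutrient solution, under a 16 h photoperiod at 22 C and 70% humidity. RNA came from a mix of roots of plants 4 to 5 weeks old and was hybridised to Affymetrix ATH1 arrays, which measure each transcript with a set of short probes (a probe set). All plants came from the control solution. The starved plants were moved to a solution in which phosphoric acid (0.5 mM) and nitric acid (1.25 mM) took the place of the potassium phosphate (0.5 mM) and potassium nitrate (1.25 mM) of the control solution. The control plants were moved to the control solution again, and their roots at 48 h and 96 h gave the other 2 arrays. Each group was 1 array, so no value has a replicate error and no difference was tested. The labels do not say how many plants made up an array, the time of day of harvest, or whether the pH of the potassium-free solution was adjusted.

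Potassium is the main positively charged ion of plant cells. It balances nitrate and other anions, drives cell expansion through turgor and activates many enzymes, and roots deprived of it draw first on their vacuolar stores before growth and ion uptake are altered. Several gene groups met below have well-known roles: low-oxygen genes serve fermentation and oxygen sensing, extensins are hydroxyproline-rich proteins that cross-link the cell wall, secreted peroxidases oxidise wall phenolics, and iron deficiency genes serve iron uptake and its control.

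Differences are given as changes in log2(signal + 16) from 48 h to 96 h, and a fold is the ratio on that same scale. The added 16 understates the changes of dim probe sets. "Higher" and "lower" are used of these single arrays only. Levels of different probe sets are not set against each other, since probes differ in brightness.

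By 96 h, 244 probe sets (1.7% of 14324) in starved roots had a signal at least 2-fold above that at 48 h, and for 133 (0.929%) it was at least 2-fold below. Together these 377 made up 2.63%. In control roots the same interval gave 169 of the same probe sets (1.18%) past 2-fold upward and 57 (0.398%) downward, together 1.58%. The median change over all probe sets was -0.00 in starved and -0.01 in control roots, and the SD over probe sets was 0.42 and 0.37. Of the 244 higher probe sets 43 passed 4-fold and 14 passed 8-fold, while only 4 of the 133 lower ones passed 4-fold and 2 passed 8-fold.

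The passage of time in control solution moved many of the same probe sets the same way. Of the 244 higher probe sets, 104 (42.6%) were also at least 2-fold higher in control roots, 132 were higher there by less than 2-fold and 8 were not higher. Their median change was 1.38 in starved and 0.86 in control roots. Of the 133 lower probe sets, 22 (16.5%) were at least 2-fold lower in control roots, 90 were lower by less than 2-fold and 21 were not lower, with medians of -1.25 and -0.41. Read the other way, 61.5% of the probe sets that were 2-fold higher in control roots, and 38.6% of those 2-fold lower, passed 2-fold in starved roots as well. Across the 14324 probe sets the change in starved roots and that in control roots had Pearson's r 0.59 and Spearman's rho 0.44. Probe sets are not independent replicates, and the value pairs share the platform, the scaling and the sampling times, so this is a description only.

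The position of the starved 96 h array relative to both control arrays was also recorded. It lay above both for 220 of the 244 higher probe sets and below both for 128 of the 133 lower ones. The starved 48 h array lay below both control arrays for 123 of the 244 and above both for 72 of the 133. These counts do not say where the same probe sets lay at 96 h. The probe sets were selected by the change between the starved arrays, and that selection by itself favours such positions at 48 h and 96 h. No share over all probe sets that entered the comparison was taken for reference. The counts of positions are therefore a description, and not evidence that starved roots moved beyond control roots. One of the 2 starved values lay under the 40th percentile for 96 of the 244 and 43 of the 133.

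**Figure D1:**
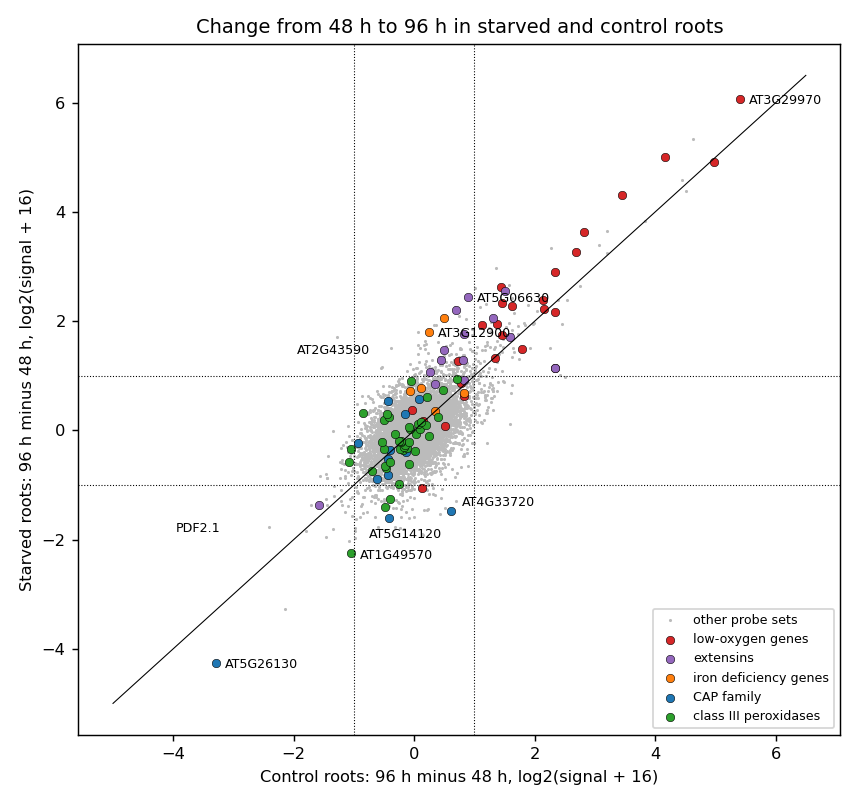
Change from 48 h to 96 h in starved roots (vertical axis) against control roots (horizontal axis), in log2(signal + 16), for 14324 probe sets, 1 array per group. Coloured points are members of 5 gene lists, the solid line marks equal change and dotted lines mark 2-fold. Low-oxygen genes lie at the upper right near the line, extensins mostly above it, and AT4G33720 and AT5G14120 below it.

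Signs of sample quality were as follows. The 25S ribosomal RNA control probe set read 795 on the starved array at 48 h, against 60.8 on the starved array at 96 h and 58.7 and 73.1 on the control arrays at 48 h and 96 h. The 18 hybridisation spike-in probe sets had a 96 h to 48 h ratio between 0.848 and 1.14 in starved and between 0.505 and 0.930 in control roots. The ratio of the 3 prime to the 5 prime probe set at 48 h and 96 h in starved roots was 1.17 and 1.04 for actin, 1.08 and 1.01 for GAPDH and 1.24 and 1.54 for ubiquitin. The part of these in the results was not tested. The annotation named exactly 1 gene for 7794 of the 14324 probe sets, standing for 7711 genes. In starved roots 114 of these genes (1.48%) passed 2-fold upward by 96 h and 63 (0.817%) downward, together 2.3%. In control roots 83 (1.08%) and 29 (0.376%) did, together 1.45%. These shares are the background for the counts over gene lists below.

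Of the cell type markers listed, the root hair set had 5 of 9 members with a named probe set, and these 5 passed the filter. Their summed signal was 2536 and 1983 on the starved arrays at 48 h and 96 h and 2049 and 1372 on the control arrays. One of them, the root hair peroxidase gene AT4G26010, was at 1371 and 1181 on the starved arrays at 48 h and 96 h and at 1236 and 849 on the control arrays. Markers of endodermis, xylem, phloem and root tip had no named probe set. For green tissue only PSAN, a photosystem I subunit, was named among 9 listed genes, at 69.4 and 56.5 in starved and 61.3 and 85.6 in control roots at 48 h and 96 h. The cortex marker AT1G62500 was at 32.3 and 111 in starved and 42.7 and 79.1 in control roots, a change of 1.39 and 0.70. In RNA of whole roots, fewer cells of a type and less RNA per cell cannot be told apart.

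Among probe sets with a named gene, the highest changes in starved roots were those of low-oxygen genes, a list of transcripts known to accumulate in hypoxic Arabidopsis tissue. The annotation named a probe set for 27 of 53 genes listed, and 26 were measured above the filter. At 96 h 20 of the 26 were at least 2-fold higher and 1 passed 2-fold downward, against a background of 1.48% and 0.817% of genes. Both starved arrays were at or above the 40th percentile for 20 of the 26, and the other 6 entered through the 96 h array alone, which fixed their direction. Those 6 give no support for a change of the group, but the counts and the median are over all 26. The list was chosen with earlier results of these data known, so its counts are a description. The median change was 2.05 against -0.01 over all 7711 genes. In control roots 19 of the 26 were at least 2-fold higher, with a median of 1.54. The change was the larger in starved roots for 18 of the 26, and the median difference between the 2 changes was 0.34.

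The regulator of the group with a named probe set is AT3G10040 (HRA1), a trihelix transcription factor that restrains the low-oxygen response. Its signal was 30.4 at 48 h and 330 at 96 h in starved roots, and 27.2 and 201 in control roots, changes of 2.90 and 2.33. Both 96 h arrays were well above both 48 h arrays. CML38, a calmodulin-like protein of stress granules in hypoxic cells, was at 54.9 and 422 in starved and 105 and 313 in control roots, changes of 2.63 and 1.44. Its starved value was the lowest of the 4 arrays at 48 h and the highest at 96 h. AT3G03270 (HRU1), a universal stress protein tied to oxygen sensing and reactive oxygen, was at 566 and 2693 in starved and 404 and 1850 in control roots, changes of 2.22 and 2.15.

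For the fermentation enzymes, PDC2, a pyruvate decarboxylase that feeds ethanol fermentation, was at 667 and 1688 in starved and 519 and 1331 in control roots. Its changes of 1.32 and 1.33 were nearly equal. AT4G17260, a lactate dehydrogenase, was at 262 and 652 in starved and 286 and 484 in control roots, changes of 1.27 and 0.73. A list of glycolysis and fermentation genes, matched on gene symbols and synonyms, had 13 measured members. Their median was 0.11 in starved and -0.03 in control roots. PDC2 was the only one of them past 2-fold in starved roots. The list did not take in AT4G17260, so it does not cover all fermentation genes.

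The members with the widest changes are little-known proteins. AT3G29970, a B12D-family protein, was at 4.42 and 1353 in starved and 11.8 and 1161 in control roots, a fold of 67.0 and 42.4 on the log2(signal + 16) scale. Its 48 h values lay under the 40th percentile in both solutions, so the folds depend on the added 16. AT2G17850, a rhodanese-domain protein, was at 27.8 and 1401 in starved and 31.9 and 840 in control roots. The changes of AT2G17850 were 5.01 and 4.16, and those of AT5G10040 were 4.92 and 4.98, so that the control roots had the slightly larger change for the second of them. AT4G33560 and AT4G10270, both wound-responsive family proteins, had changes of 4.32 and 3.26 in starved and 3.44 and 2.68 in control roots. AT4G24110 followed with 3.63 and 2.81. In starved roots at 48 h AT2G17850, AT5G10040, AT4G33560 and AT4G24110 lay under the 40th percentile, and AT4G10270 above it.

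AT4G17670, which carries a zinc-finger domain of the FLZ type, and AT5G44730, a haloacid dehalogenase-like hydrolase, were above the 40th percentile on all 4 arrays. AT5G44730 was at 73.0 and 434 in starved and 65.2 and 208 in control roots, changes of 2.34 and 1.46. AT4G17670 was at 132 and 549 in starved and 123 and 289 in control roots, changes of 1.93 and 1.13. For both genes the starved 96 h array stood clearly above the control 96 h array while the 48 h arrays were close to each other. The opposite order held for AT2G15880, a pollen extensin-like gene that is also on the low-oxygen list, at 24.9 and 74.5 in starved and 22.3 and 178 in control roots.

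A single member of the list was at least 2-fold lower. AT3G10020 was at 428 and 199 in starved roots and at 323 and 354 in control roots, changes of -1.05 and 0.13. Its 48 h value was the highest and its 96 h value the lowest of the 4 arrays. The 5 members with smaller changes were AT1G26270, a phosphatidylinositol 4-kinase (0.87), AT1G74940 (0.63), AT4G39675 (0.37), AT2G36220 (0.16) and AT1G19530 (0.08), all in starved roots.

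**Figure D2:**
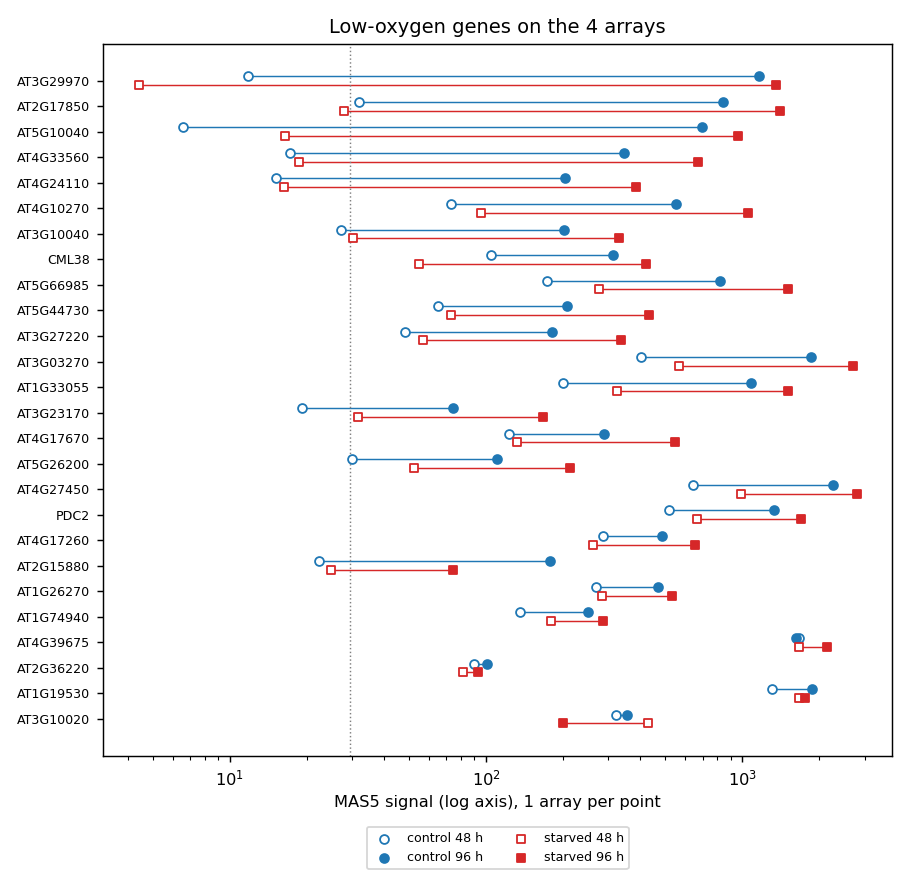
MAS5 signal (log axis) of the 26 low-oxygen genes that passed the filter on each of the 4 arrays, 1 array per point, with a line from 48 h to 96 h in each solution. The dotted line is the 40th percentile of the starved 48 h array. The 96 h points lie far to the right of the 48 h points in both solutions for most genes, and AT3G10020 is lower at 96 h in starved roots.

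Genes near this group by function, but named outside the list, were checked as whole families. These family lists were written after values had been seen, so their counts are descriptions. The universal stress proteins, small nucleotide-binding proteins, had 17 measured members of 20 listed. Of these 3 were at least 2-fold higher in starved roots and the same number in control roots, while the medians were -0.05 and 0.08, and 10 of the 17 had a change below 0 in starved roots. The 3 were AT3G03270, AT3G11930 (476 and 1735 in starved, 480 and 1505 in control roots) and AT2G47710 (201 and 603 in starved, 136 and 560 in control roots). The prolyl 4-hydroxylases, oxygen-dependent enzymes that make the hydroxyproline of wall proteins, had 6 measured members of 13 listed. Of these 2 were at least 2-fold higher in starved roots and 0 in control roots. The medians were 0.23 in starved and 0.14 in control roots, and 1 of the 6 had a change below 0 in starved roots. AT1G20270 was at 34.8 and 116 in starved and 30.2 and 64.6 in control roots, changes of 1.38 and 0.80. AT3G28480 was at 162 and 347 in starved and 143 and 263 in control roots, changes of 1.03 and 0.81. Both enzymes were highest on the starved 96 h array, and their control changes were also above 0.

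The extensins were the second group with high changes, and here the starved change exceeded the control change by more than for the low-oxygen genes. The distance between the solutions at 96 h was not wider, with a median of 0.43 for the extensins and 0.47 for the low-oxygen genes. This family list was written after values had been seen, so its count is a description. The annotation named a probe set for 19 of 30 extensin and leucine-rich extensin genes, and 14 were measured above the filter. In starved roots 11 of the 14 passed 2-fold upward by 96 h and 1 downward, against 4 and 1 in control roots. For 12 of the 14 both starved arrays were at or above the 40th percentile. The other 2 entered through the 96 h array alone, which fixed their direction. Those 2 give no support for a change of the family, but the counts and the medians are over all 14. The medians were 1.38 and 0.81, the change was larger in starved roots for 13 of 14, and the median difference of changes was 0.78. The starved 48 h array lay above the control 48 h array for only 2 of the 14, and the starved 96 h array above the control 96 h array for 10. Part of the wider change in starved roots was therefore a lower 48 h value. Probe sets of 4 of the 14 carry names that mark probes shared with other sequences, and extensins are repetitive, so members of the family may contribute to each other's signal.

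AT3G54580, an extensin-family gene, was at 132 and 846 in starved and 164 and 497 in control roots. Its changes were 2.54 and 1.51. AT5G06630 was at 335 and 1900 in starved and 456 and 859 in control roots, changes of 2.45 and 0.89, and AT4G08410 was at 154 and 765 in starved and 214 and 354 in control roots, changes of 2.20 and 0.69. Both of these have shared probe sets. For all 3 genes the starved roots had the lowest value of the 4 arrays at 48 h and the highest at 96 h. AT3G28550 had the same order, with 140 and 630 in starved and 180 and 467 in control roots.

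HRGP1, another hydroxyproline-rich wall protein with a shared probe set, was at 704 and 1970 in starved and 792 and 1129 in control roots, changes of 1.46 and 0.50. AT1G26250 was at 1696 and 3566 in starved and 2343 and 2813 in control roots, changes of 1.07 and 0.26. Leucine-rich extensins bind secreted signalling peptides in the wall, and 3 of them outside pollen were measured. AT3G22800 (LRX6) was at 118 and 441 in starved and 249 and 455 in control roots, so its change of 1.77 ran from the lowest value of the 4 arrays at 48 h to near the control level at 96 h. AT4G18670 (LRX5) was at 28.2 and 91.5 in starved and 27.6 and 60.3 in control roots, changes of 1.28 and 0.81, with both 48 h values under the 40th percentile. AT3G24480 (LRX4) had a change of 0.92 in starved roots.

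The exception was AT4G08380, at 333 and 119 in starved and 409 and 126 in control roots, changes of -1.38 and -1.58. The arrays of the same time were close to each other for this gene. The remaining members higher at 96 h than at 48 h in starved roots were AT2G43150 with a change of 1.70, AT1G23720 with 1.30, AT2G15880 with 1.15 and AT1G26240 with 0.85. Control changes were 1.58 for AT2G43150, 0.44 for AT1G23720 and 2.34 for AT2G15880. At 96 h AT2G43150 was at 195 in starved and 199 in control roots, and AT2G15880 was at 74.5 and 178.

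**Figure D3:**
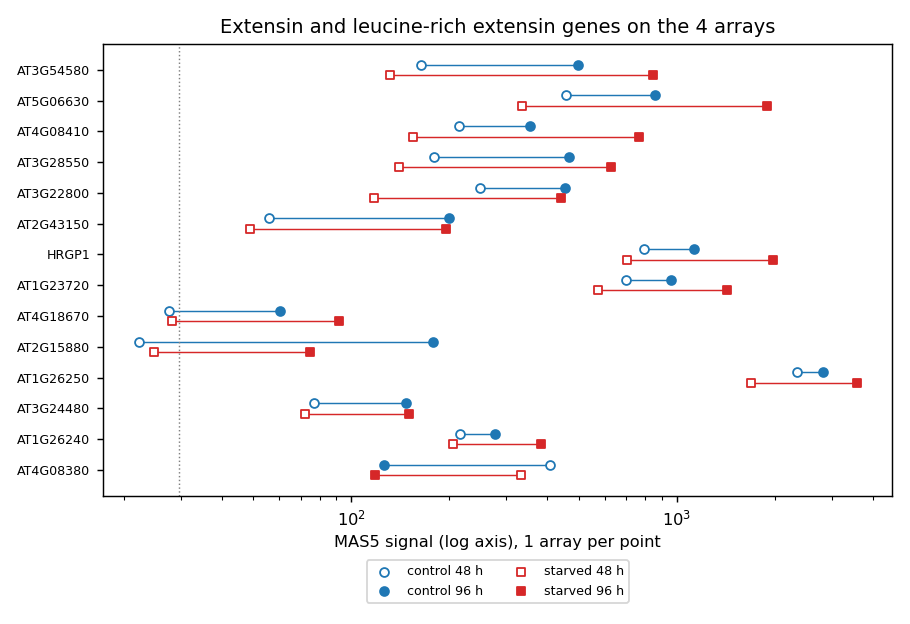
MAS5 signal (log axis) of the 14 extensin and leucine-rich extensin genes that passed the filter, 1 array per point, with a line from 48 h to 96 h in each solution and the 40th percentile of the starved 48 h array dotted. For 12 of the 14 the starved 48 h point lies left of the control 48 h point, and for 10 the starved 96 h point lies right of the control 96 h point.

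Genes of wall loosening were also counted. Expansins loosen the wall without hydrolysis, and xyloglucan endotransglucosylases cut and rejoin its xyloglucan chains. Of 20 measured genes with a symbol or synonym of one or the other, 1 (5%) passed 2-fold upward and 1 (5%) downward in starved roots. The background was 1.48% and 0.817% of genes. The median was -0.28 against -0.40 in control roots. EXPB2, a beta-expansin, was at 49.4 and 122 in starved and 62.6 and 81.7 in control roots, changes of 1.08 and 0.31. XTH26, a root hair enzyme, was at 77.2 and 24.3 in starved roots, and its changes were -1.21 in starved and -1.33 in control roots, with both 96 h values under the 40th percentile. XTH26 entered through the starved 48 h array alone, which fixed its direction. All 5 root hair markers had changes below 0 in both solutions, with medians of -0.55 and -0.54. Among them, EXPA7, an expansin of growing hairs, was at 201 and 109 in starved and 132 and 84.5 in control roots, so the starved array was above the control array at both times. The pectin methylesterase inhibitor family gene AT5G62360, chosen as one of the lowest genes, was at 249 and 51.7 in starved and 187 and 86.4 in control roots, changes of -1.97 and -0.99.

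Iron deficiency genes were counted in the same way. The annotation named a probe set for 7 of 17 genes listed. In starved roots 6 passed the filter and 2 of them were at least 2-fold higher, but only 3 of the 6 were at or above the 40th percentile on both starved arrays. The 2 passed only through the 96 h array, so that their direction was fixed by the filter and their count is no support for a change of the group. Over the 6 the median change was 0.76, and 0.30 in control roots, where 0 passed 2-fold. That median includes the members under the 40th percentile on 1 starved array, so the filter shaped it as well. UGT72E1, described below with the glucosyltransferases, was also 1 of the 6. AT1G47400 encodes an IRON MAN peptide, a small signal of iron shortage, and was at 1.89 and 58.9 in starved and 10.4 and 21.4 in control roots, changes of 2.07 and 0.50. AT3G12900, the scopoletin 8-hydroxylase that makes the iron-mobilising coumarin fraxetin, was at 17.1 and 99.9 in starved and 19.8 and 26.4 in control roots, changes of 1.81 and 0.25. With a pseudocount of 64 the change of AT1G47400 was 0.90, under 2-fold. For both genes the starved 96 h value lay above the 40th percentile of its array and the other 3 values lay below it.

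A further list of 13 iron genes, written after values had been seen, had 7 measured members with a median of 0.56 in starved and 0.26 in control roots. AT1G74770 (BTSL1), an E3 ubiquitin ligase that limits the iron uptake response, was at 152 and 386 in starved and 148 and 234 in control roots, changes of 1.26 and 0.60. AT3G61930 was at 12.3 and 57.6 in starved and 14.1 and 29.1 in control roots, changes of 1.38 and 0.58, with all but the starved 96 h value under the 40th percentile. PYE, a transcription factor of iron homeostasis in the stele, was at 74.8 and 123 in starved and 69.6 and 86.7 in control roots, a change of 0.62 against 0.26. AT3G13610, the feruloyl-CoA hydroxylase at the start of coumarin synthesis, was at 1136 and 1175 in starved and 878 and 702 in control roots, so its change was 0.05 in starved and -0.32 in control roots. Of the bHLH factors upstream of PYE, bHLH104 had a change of -0.90 and bHLH115 of 0.32, against -0.08 and -0.24 in control roots, and ILR3 had 0.04 and 0.02.

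Among single genes higher at 96 h, several had a change near 0 or below it in control roots. AT2G43590, a chitinase-family gene, was at 63.9 and 210 in starved and 79.1 and 56.4 in control roots, a fold of 2.83 higher and 1.31 lower. AT4G01390, a TRAF-like protein, was at 68.0 and 221 in starved and 38.8 and 45.7 in control roots, changes of 1.49 and 0.17, and its starved value was the higher at both times. AT4G01870, a TolB-related protein, was at 48.1 and 155 in starved and 36.5 and 45.5 in control roots. These 3 genes had their highest value on the starved 96 h array by at least 2-fold over either control array.

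Genes of detoxification and defence regulation were counted by list. On the cytochrome P450 list 8 genes were measured, with medians of -0.39 in starved and -0.30 in control roots. In starved roots 1 was at least 2-fold lower, and in control roots 1 was at least 2-fold higher. The lower gene, CYP718, was at 49.3 and 2.26 in starved and 23.1 and 3.87 in control roots. It entered through the starved 48 h array alone, which fixed its direction. GSTU22, a tau-class glutathione transferase, was at 66.0 and 147 in starved and 68.1 and 70.1 in control roots, a change of 0.99 against 0.03. Of 10 measured glutathione transferases 0 passed 2-fold in either solution, with medians of -0.13 and 0.04. Of 22 measured UDP-glucosyltransferases 0 passed 2-fold in either solution, and UGT72E1, which glucosylates monolignol aldehydes, was at 267 and 440 in starved and 139 and 259 in control roots, changes of 0.69 and 0.82. Of 6 WRKY factors 0 passed 2-fold. WRKY6 was at 106 and 200 in starved and 97.0 and 117 in control roots, and WRKY53 was at 45.2 and 30.9 in starved and 91.1 and 76.0 in control roots.

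Other genes at least 2-fold higher in starved roots had a like change in control roots. CCR2, a cinnamoyl-CoA reductase of lignin synthesis, was at 37.6 and 101 in starved and 24.3 and 86.5 in control roots. TPS-CIN, the root cineole synthase, was at 58.3 and 162 in starved and 25.4 and 91.8 in control roots, and since the genome holds a near-identical neighbouring copy its signal may come from both. TIL, a lipocalin that protects membranes in heat and cold, was at 721 and 2258 in starved and 685 and 1595 in control roots. The changes of CCR2 and TPS-CIN were 1.13 and 1.26 in starved and 1.35 and 1.38 in control roots, and TIL was 3.09-fold and 2.30-fold higher.

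Among the genes lower at 96 h, members of 4 families of secreted proteins were counted. The CAP family comprises small secreted proteins related to pathogenesis-related protein 1. Of 22 genes listed after values had been seen, 12 were measured, of which 3 were at least 2-fold lower in starved roots at 96 h, against 1 in control roots, and 0 were 2-fold higher in either. The family medians of -0.46 and -0.43 were close, so the difference lay with single members.

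AT5G26130 had the lowest change of the named genes. Its signal was 1007 and 37.4 in starved and 1714 and 160 in control roots, changes of -4.26 and -3.30. Its starved value was the lower of the 2 solutions at both times. AT4G33720 was at 1460 and 513 in starved and 1231 and 1880 in control roots, so it was 2.79-fold lower at 96 h in starved and 1.52-fold higher in control roots. AT4G07820 was at 2160 and 702 in starved and 1848 and 1373 in control roots, changes of -1.60 and -0.42. For the last 2 genes the starved array was the highest or second highest of the 4 at 48 h and the lowest at 96 h. At the other end of the family, AT1G50060 was at 106 and 161 in starved and 188 and 134 in control roots, changes of 0.53 and -0.44.

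Class III peroxidases use hydrogen peroxide in the wall, where they cross-link phenolics and proteins. Of 73 genes listed, 41 were measured, of which 3 were at least 2-fold lower and 0 were 2-fold higher in starved roots, and the same counts held in control roots. The medians were -0.21 in both solutions. AT1G49570 was at 539 and 101 in starved and 701 and 332 in control roots, changes of -2.25 and -1.05. AT3G03670 was at 1130 and 419 in starved and 1055 and 746 in control roots, and AT5G19890 was at 1578 and 651 in starved and 1374 and 1040 in control roots. Their changes were -1.40 and -1.26 in starved and -0.49 and -0.40 in control roots. For all 3 peroxidases the starved 96 h array was the lowest of the 4. PRX52, which takes part in lignin formation and lay under the 40th percentile at 48 h, had one of the highest changes of the family, 0.94 in starved and 0.70 in control roots.

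Dirigent proteins steer the coupling of phenoxy radicals in lignan and lignin synthesis. Of 8 measured members, 3 were at least 2-fold lower in starved roots and 1 in control roots, with medians of -0.52 and -0.45. AT4G13580 was at 474 and 210 in starved and 319 and 289 in control roots, changes of -1.11 and -0.14. AT4G11190 and AT4G11210 had changes of -1.25 and -1.10 in starved and -1.47 and -0.82 in control roots, and both lay under the 40th percentile at 96 h in starved roots. Both entered through the starved 48 h array alone, which fixed their direction, so they give no support for a change of the family. The dirigent counts and medians are over all 8, of which 6 were at or above the 40th percentile on both starved arrays. The germin-like family, secreted metal-binding proteins, had 5 measured members, of which AT3G05950 was at 796 and 183 in starved and 651 and 300 in control roots, changes of -2.03 and -1.08. The other 4 germin-like genes were within 2-fold.

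A list of defence-type secreted proteins, matched on gene symbols and synonyms, had 8 measured members. Of these 0 passed 2-fold in starved roots and 5 had a change above 0, with medians of 0.32 in starved and -0.06 in control roots. In control roots 1 passed 2-fold upward and 1 downward. The list did not take in the chitinase-family gene AT2G43590, which was more than 2-fold higher in starved roots, so it does not cover all defence-type genes. Some single genes outside that list were among the lowest named genes. PDF2.1, a plant defensin, was at 624 and 172 in starved and 389 and 60.3 in control roots, changes of -1.77 and -2.41. AT1G70880, of the major latex protein family, was at 860 and 210 in starved and 505 and 174 in control roots, changes of -1.96 and -1.46. Both were higher in starved than in control roots at each time. SBT4.12, a subtilisin-type protease, was at 1030 and 411 in starved and 1028 and 725 in control roots, changes of -1.29 and -0.49. The defensin-like gene AT4G22212 was at 2051 and 778 in starved and 1941 and 1456 in control roots, with the starved 96 h array again the lowest.

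A group of genes lower in starved roots had almost no change in control roots. AT5G14120, a membrane transporter of the major facilitator superfamily, was at 924 and 294 in starved and 1056 and 990 in control roots, changes of -1.60 and -0.09. ATL8, a RING-type ubiquitin ligase, was at 127 and 35.0 in starved and 167 and 150 in control roots, changes of -1.49 and -0.14. AT5G60760, with a nucleoside triphosphate hydrolase domain, was at 215 and 61.3 in starved and 232 and 197 in control roots, changes of -1.58 and -0.22. In each of these the control arrays and the starved 48 h array lay together and the starved 96 h array lay apart below them. AT5G56100 was at 235 and 76.4 in starved and 176 and 170 in control roots, changes of -1.44 and -0.04.

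Genes of leucine breakdown were similar in part. MCCA, a subunit of the mitochondrial methylcrotonyl-CoA carboxylase of leucine breakdown, was at 221 and 84.9 in starved and 241 and 240 in control roots, changes of -1.23 and -0.01. IVD, the isovaleryl-CoA dehydrogenase of the preceding step, was at 130 and 68.8 in starved and 141 and 177 in control roots, changes of -0.78 and 0.29. MCCB, the partner subunit of MCCA, was at 146 and 113 in starved and 191 and 193 in control roots, changes of -0.33 and 0.02. All 3 were lowest on the starved 96 h array. Over the 7 measured members of the pathway 1 was at least 2-fold lower, and the median was -0.33 in starved and -0.01 in control roots. BCAT4, an aminotransferase of methionine-derived glucosinolate synthesis, was at 1106 and 646 in starved and 995 and 1118 in control roots, a change of -0.76 against 0.17.

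Subtracting the control change from the starved change left 99 probe sets (0.691%) at least 2-fold above and 103 (0.719%) at least 2-fold below, together 1.41%. The 12 highest and 12 lowest named genes by that difference were examined gene by gene. AT2G43590 led the high side with 1.89, followed by AT3G19430, related to late embryogenesis abundant proteins, with 1.71. AT3G19430 was at 90.4 and 223 in starved and 232 and 154 in control roots, so its starved 96 h value was close to that of the control roots at 48 h. The iron genes AT1G47400 and AT3G12900 (1.57 and 1.56) and the extensins AT5G06630 and AT4G08410 (1.56 and 1.51) were also among the 12. For AT1G53450, at 6.23 and 47.4 in starved and 37.3 and 41.1 in control roots, the starved 48 h array alone stood apart.

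On the low side AT4G33720 led with -2.08. AT5G05600, a jasmonate oxidase that inactivates the hormone, was at 90.8 and 51.7 in starved and 90.7 and 182 in control roots, a difference of -1.55. AT1G06620, a related oxygenase, was at 36.5 and 41.2 in starved and 34.1 and 134 in control roots. AT4G22610, a lipid transfer family protein, was at 49.4 and 39.9 in starved and 36.3 and 105 in control roots. For the last 2 genes the starved roots stayed near their 48 h value, and it was the control 96 h array that stood apart. The difference of changes therefore joins genes that moved in starved roots with genes that moved in control roots alone.

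**Figure D4:**
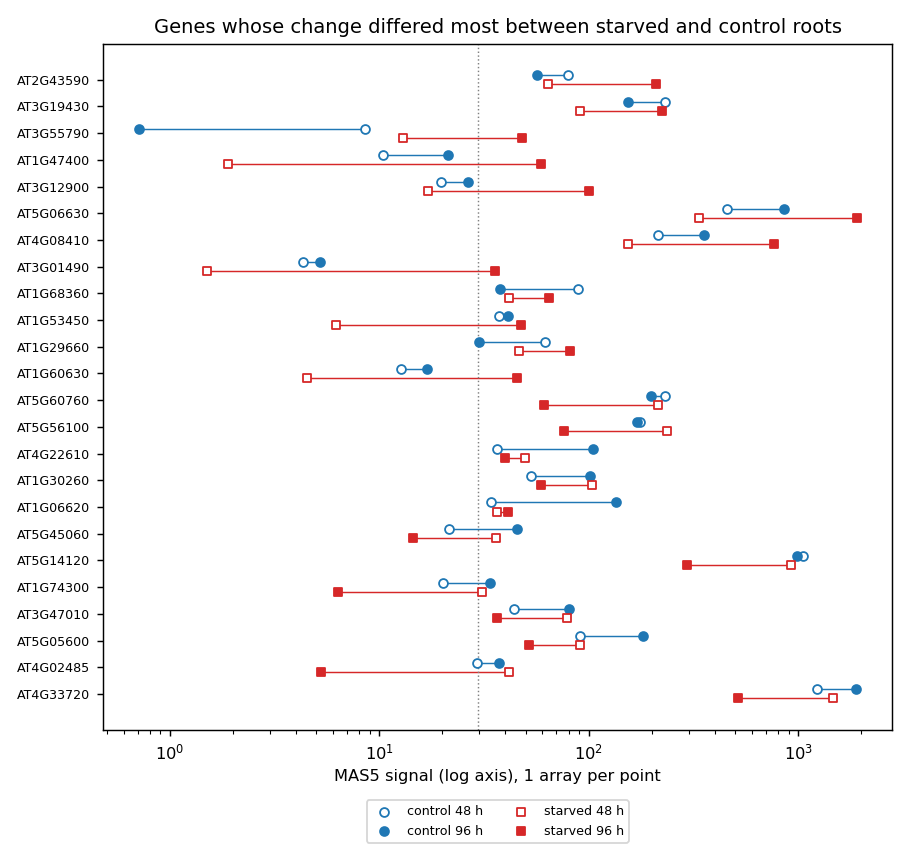
MAS5 signal (log axis) on the 4 arrays of the 12 genes with the highest (top) and the 12 with the lowest (bottom) difference between the starved and the control change from 48 h to 96 h. Points are single arrays, lines join 48 h to 96 h in each solution and the 40th percentile of the starved 48 h array is dotted. AT5G14120 and AT5G60760 have 3 arrays together and the starved 96 h array below them, while for AT1G06620 the control 96 h array stands apart.

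The difference between the solutions at each time puts these values in place. At 48 h the starved array exceeded the control array at least 2-fold for 12 probe sets (0.0838%) and was exceeded by it for 11 (0.0768%). At 96 h the counts were 62 (0.433%) and 65 (0.454%). These comparisons share arrays with the change in starved roots and add no independent support to it.

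Several gene groups gave few or no calls. Autophagy is the recycling of cell contents, for which ATG8 proteins coat the membranes. Of 9 measured ATG8 genes 0 passed 2-fold, 8 of 9 had a change below 0 in starved roots, and the medians were -0.18 and -0.10. ATG8H had the widest change, at 245 and 128 in starved and 187 and 147 in control roots. Tubulin genes, of which 7 were measured, had medians of -0.10 in starved and -0.43 in control roots with 0 calls in either.

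Transcripts of the organelle genomes were also followed. Of 58 measured plastid-encoded genes 1 was at least 2-fold higher in starved and 10 in control roots, with medians of 0.26 and 0.43 and a summed signal of 13221 and 14950 in starved and 12507 and 16224 in control roots. The called gene was rps2, a plastid ribosomal protein, at 72.9 and 232 in starved and 74.5 and 210 in control roots. Of 8 measured mitochondrially encoded genes 0 passed 2-fold in starved and 2 in control roots, and the medians were 0.48 and 0.77. The list had 15 genes with a named probe set. Only 4 of the 8 were at or above the 40th percentile on both starved arrays. The others entered through 1 starved array alone, so the filter shaped the starved median. Probe sets of 2 of the 8 carry names that mark shared probes. Nuclear photosynthesis genes, 8 of them measured, had medians of 0.35 and 0.63 with 0 calls in starved and 1 in control roots. LHCB4.1, a light-harvesting protein, was at 218 and 198 in starved and 183 and 336 in control roots.

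**Figure D5:**
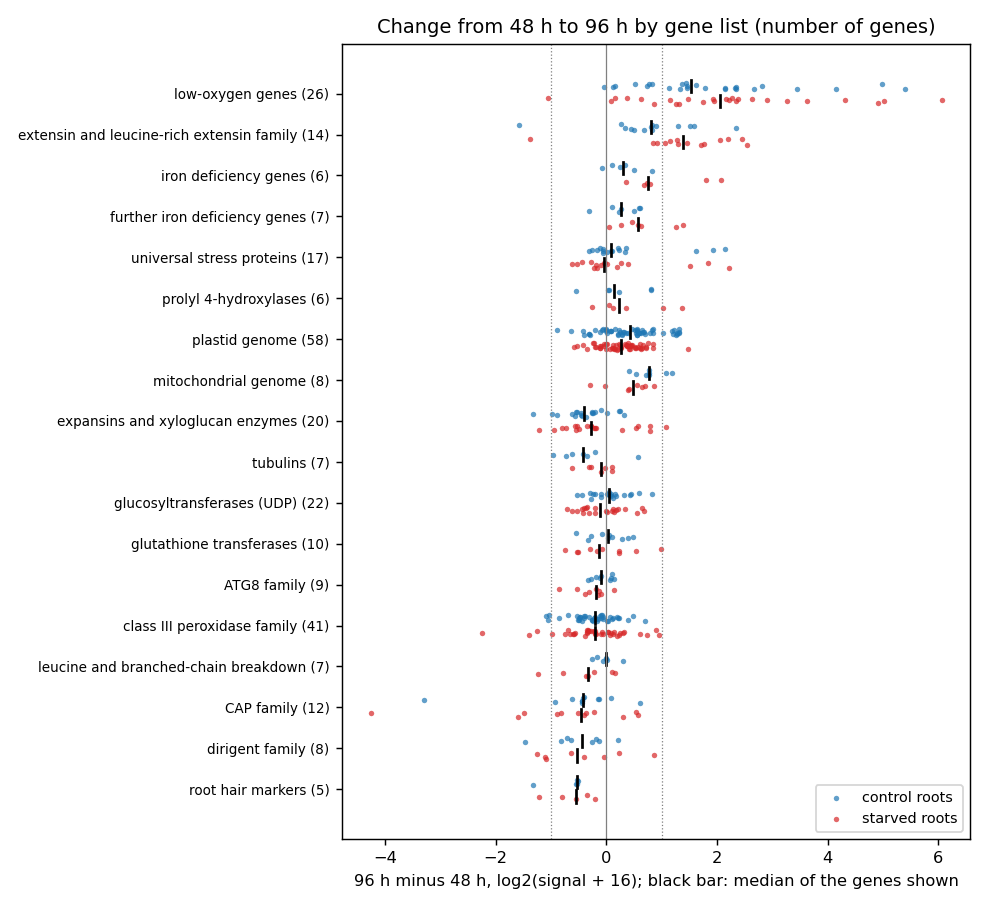
Change from 48 h to 96 h in log2(signal + 16) for the genes of 18 lists, in control roots (blue) and starved roots (red), 1 array per group and time. Each point is a gene, black bars are medians of the genes shown, and dotted lines mark 2-fold. The low-oxygen and extensin lists have medians past 2-fold in starved roots (2.05 and 1.38), and the other lists have medians within it.

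Probe sets without exactly 1 annotated gene, 6530 of the 14324, are known by identifier only. The 3 highest were 266965_at at 10.8 and 1072 in starved and 2.16 and 432 in control roots, with 260869_at at 68.3 and 2005 in starved roots and 267024_s_at at 48.5 and 1325. Their changes were 5.34, 4.58 and 4.38 in starved and 4.63, 4.45 and 4.51 in control roots, so all 3 were high in both solutions. Of the 3 lowest, 254539_s_at had a change of -3.27 against -2.14. The other 2 had almost none in control roots, with 251438_s_at at 479 and 116 in starved and 333 and 370 in control roots and 264415_at at 197 and 41.4 in starved and 180 and 199 in control roots.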

How the data were processed

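Root RNA was measured on 4 single-colour arrays, 1 for each solution and time. The deposited values are MAS5 signal intensities on a linear scale that the authors computed, per the submitters' processing notes. Its version and settings, and the build, are not given in these sources. A 2% trimmed mean near 100 on each array shows that the deposited intensity values had been scaled as a whole. The number of arrays limits the precision.

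The 64 control probe sets were set aside, and log2(intensity + 16) was compared without a test. The steps were tested on simulated data. Python 3.11.15 with numpy 2.4.6 and pandas 2.3.3 was used, and limma 3.58.1 in R 4.3.3 only for alternative normalizations. The platform annotation gave 1 gene for 13513 probe sets, several for 503 and none for 8730. Of the 13513, 13436 matched RefSeq (TAIR10.1), and 77 kept the annotation's name. Of genes with several probe sets the brightest in starved roots was used.

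The members and lists were chosen with earlier results of these data known. There were 54 lists, 15 of them without a measured gene, and 14 more (complete families, organelle genomes, further iron genes and leucine breakdown) were added after values were seen. Named genes were the 15 highest and 15 lowest, the 12 highest and 12 lowest with both starved arrays at or above the 40th percentile, the 12 highest and 12 lowest by difference from the control change, and list members past 2-fold (up to 8 a list, otherwise the 2 highest and 2 lowest). Members of the added lists, and genes outside this rule, were named after their values were seen. Alternatives varied the pseudocount, the filter, the normalization and the 48 h array.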

Additional observations from a re-analysis of the deposited data

Results flagged for a closer look

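Of the 5 genes whose change of at least 2-fold in starved roots went with a change the opposite way in control roots, by at least 1.2-fold, 3 were higher and 2 lower at 96 h in starved roots. The starved change minus the control change was 1.89 for AT2G43590, 1.71 for AT3G19430, 1.70 for AT3G55790, -1.52 for AT1G74300 and -2.08 for AT4G33720. Each solution had 1 array per time, so the difference was not tested for any of them. AT3G55790 and AT1G74300 had starved signals under the 40th percentile at 48 h or 96 h. The 25S ribosomal RNA control probe set, which no comparison uses, read 795 on the starved array at 48 h, above the 58.7 and 73.1 of the control arrays.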

How the results depend on the processing

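With 1 array per group, no array could be left out. No paired analysis was possible because all 4 arrays carry the replicate number 1 and each group holds 1 array. The counts reported were 244 higher and 133 lower in starved roots, 169 and 57 in control roots, and 99 and 103 for the difference of changes. With a pseudocount of 1 they were 400 and 274, 301 and 158, and 282 and 245, and with a pseudocount of 64 they were 110 and 49, 80 and 13, and 15 and 23. By its construction a smaller constant gives dim probe sets larger folds. Without a filter the difference of changes gave 174 and 164, and the other counts stayed within 1.5 times. A filter at the 60th percentile gave 59 for the higher differences of changes. Requiring both starved arrays at or above the 40th percentile gave 148 higher in starved roots and 59 for the higher differences of changes. Equal medians, quantile and cyclic loess normalization kept all 6 counts within 1.5 times. Setting the starved 96 h array against the control 48 h array, chosen after seeing the data, gave 306 higher and 153 lower. The change of AT3G19430 turned to -0.056 there, and 4 others of the 53 named genes past 2-fold also came under 2-fold. With a pseudocount of 64, 17 of the 53 came under 2-fold. The higher share of the 2-fold calls was 64.7%, and between 59.3% and 69.2% under the alternatives. Probe sets near the 40th percentile have small signals, which limits their folds.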

Other observations

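Transport genes outside the groups above were looked at after values had been seen. A cluster of neighbouring NPF2 genes, whose products carry nitrate and other anions, had 4 measured members of 7 listed. AT3G45700 was at 102 and 36.2 in starved and 157 and 94.5 in control roots at 48 h and 96 h, changes of -1.18 and -0.64. Its neighbour AT3G45680 was at 6.72 and 34.9 in starved and 23.9 and 29.9 in control roots, changes of 1.16 and 0.20, and only its starved 48 h value stood apart. AT3G45680 entered through the starved 96 h array alone, which fixed its direction. SWEET13, a sucrose exporter, was at 15.9 and 51.9 in starved and 25.4 and 34.3 in control roots, a change of 1.09 against 0.28, with its starved 48 h value under the 40th percentile.

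Single genes of several other functions followed. BETA-VPE, a vacuolar processing protease, was at 70.7 and 179 in starved and 78.6 and 120 in control roots, changes of 1.17 and 0.52. AILP1, an aluminium-induced-type protein, was at 289 and 880 in starved and 236 and 564 in control roots, a change of 1.55 in starved roots. MSRB9, a methionine sulfoxide reductase that repairs oxidised proteins, was at 642 and 303 in starved and 754 and 588 in control roots, changes of -1.05 and -0.35. The glycerate kinase gene AT1G80380 was at 1249 and 589 in starved and 1068 and 778 in control roots, changes of -1.06 and -0.45. These are single arrays and no difference was tested.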
